A study of Mus musculus with 16 samples.

Results

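The receptor and non-receptor protein tyrosine phosphatases were followed in osteoclast cultures with and without CD45, the phosphatase encoded by Ptprc. All genes whose symbol starts with Ptpr or Ptpn were taken, with Ptprcap, an adaptor, left out. This gave 36 of 21936 deposited genes, 19 named Ptpr and 17 named Ptpn. Of the 36, 24 had enough counts to be tested among 12093 genes (10 Ptpr and 14 Ptpn), and 12 did not. RNA came from 16 libraries of cultures, labelled as 4 replicates in each of 4 genotypes and seeded with CD11b-positive marrow cells from lines of C57BL/6J mice. The groups were wild type (WT), a Ptprc knockout with normal Flt3 (Ptprc KO), an Flt3 knock-in carrying the internal tandem duplication of this receptor kinase, with intact Ptprc (FLT3 ITD), and the knock-in and knockout together (FLT3 ITD Ptprc KO, called here the double mutant). Every culture, WT included, had 3 days of M-CSF at 50 ng/ml and then RANKL at 20 ng/ml, the cytokines that turn precursors into osteoclasts, and was lysed at the first mature osteoclasts, on day 3 to 5. The labels describe mouse lines and name no Cre or promoter, do not give the day of each culture or the age of the mice, and leave unsaid whether each replicate had its own animal. The p-values therefore reflect only the spread among these libraries, which may in part be technical.

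Protein tyrosine phosphatases take phosphate off tyrosine and so oppose, or in some cases release, tyrosine kinases. CD45 removes the inhibitory phosphate at the tail of Src-family kinases and can also dephosphorylate JAK kinases. In osteoclasts Src is needed for the ruffled border and resorption, SHP-1 (Ptpn6) restrains osteoclast formation, and receptor-type phosphatases such as Ptpre and Ptpro have been described as activators of Src. The duplication in FLT3 makes that receptor kinase active without ligand, and CD45 and Ptprj (DEP-1) have both been described as phosphatases that act on it.

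Total counts were 24211724 to 35773313 per library. Osteoclast markers were all detected, and their summed level was 29500 to 38000 CPM (counts scaled to the library total, with TMM-scaled library sizes) in WT, 25000 to 64300 in Ptprc KO, 15800 to 55100 in FLT3 ITD and 8510 to 46600 in the double mutant. A resorption score, the mean log2 CPM of 13 genes of bone resorption, ran from 9.86 to 10.18 in WT and from 9.68 to 10.87 in Ptprc KO. In FLT3 ITD it ran from 9.13 to 10.67, with replicate 4 at 9.13 and the others at 10.59, 10.67 and 10.56. In the double mutant it ran from 8.39 to 10.22, with replicate 3 at 10.22 and the others at 8.39, 8.71 and 8.44. Those 2 libraries stand apart from their groups. FLT3 ITD replicate 2 also stands apart, since its expression fell with gene length against the other libraries (Spearman rho of -0.46 across genes, against -0.181 to 0.181 elsewhere). FLT3 ITD replicates 1 and 3 were the closest pair, with a chi-square of 2.77 per gene, where the next pair had 13, and differed by more than sampling noise. They were kept as 2 samples, but may come from 1 culture, which the labels do not settle, and an n of 4 for FLT3 ITD counts both. With their counts summed into 1 sample, edgeR called 0 of the 23 phosphatases other than Ptprc in each of the 6 genotype comparisons described here, and Ptprc was still called in each removal of it. Other cell types that also express CD45 were present at low levels. The 6 T cell markers found summed to at most 46.6 CPM and the B and NK cell markers to at most 3.75 and 2.32, with Pax5 and Ms4a1 at 0 in WT, whereas the 8 macrophage markers summed to 2480 to 5950 CPM, in ranges that overlap between the genotypes. The 9 neutrophil markers summed to 1.56 to 93.6 CPM in WT, 5.44 to 196 in Ptprc KO, 6.71 to 118 in FLT3 ITD and 0.782 to 13.6 in the double mutant, and their part in the results was not tested.

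Ptprc (ENSMUSG00000026395; GRCm38 chromosome 1, 138062861 to 138175708, minus strand) was measured first, because it checks the labels. Values per library are given in the order of replicates 1 to 4 throughout. WT cultures had 472, 412, 464 and 469 CPM, and Ptprc KO cultures 41.5, 36.6, 30.8 and 45.8 CPM. FLT3 ITD cultures had 416, 230, 414 and 543 CPM, and double-mutant cultures 54.1, 86.7, 63.8 and 54.5 CPM. Each of the 8 knockout libraries was lower than each of the 8 with intact Ptprc, a separation found for 0.0248% of all genes, and the knockouts still held 816 to 2507 counts of the gene. Ptprc fell by 3.55 on the log2 scale with normal Flt3 (SE 0.25, adjusted p = 7e-06) and by 2.63 with FLT3 ITD (SE 0.24, adjusted p = 0.00023). A fit of FLT3 ITD and double-mutant libraries alone gave the second change as -2.66 with an adjusted p of 0.16. The residual level was 1.67-fold higher in the double mutant than in Ptprc KO, a log2 difference of 0.74 (SE 0.23, adjusted p = 0.19), and their libraries did not overlap.

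Scaled to the deposited gene lengths, Ptprc ranked 5 of the 36 phosphatase genes by mean TPM in WT. In CPM, without that scaling, Ptprc led the family in WT at 454 ± 28.5. Ptpn6 had 386 ± 49.1 and Ptpn12 304 ± 25.9 CPM (SD, n = 4). The deposited gene length was 18313 bases for Ptprc, 2802 for Ptpn6 and 3509 for Ptpn12. The rank and share of Ptprc therefore depend on the lengths used. Compared per gene length, in the deposited TPM (transcript abundance scaled to gene length and library total), SHP-1 (Ptpn6) led in WT at 493 ± 76.4 TPM (SD, n = 4). It was followed by the cytoskeletal phosphatase PTP-PEST (Ptpn12) at 306 ± 25.9 and by PTP1B (Ptpn1), which acts on growth factor receptors and JAK kinases, at 127 ± 14 (SD, n = 4). These 3 genes held 54.8% of the family's summed TPM. Ptprc came next after Ptpn22, at 87.5 ± 6.92 TPM, with Ptpn22 (LYP, a PEST-type phosphatase that restrains Src and Syk signals in lymphocytes) at 95.8 ± 16.9 and Ptprj at 84.2 ± 6.53 (SD, n = 4). The libraries of Ptpn22, Ptprc and Ptprj overlapped, so their order is within the spread. Ptpre followed at 70.1 ± 19.6 TPM, and SHP-2 (Ptpn11), Ptpn9 and Ptpra, a receptor type that also releases Src, lay at 57.7, 57.3 and 56.3 TPM. Ptpn18, Ptpn23, Ptpn7, Ptpn2, Ptpro and Ptprs held 45.6 to 22.6 TPM, and the remaining 8 tested genes were below 10 TPM.

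**Figure D1:**
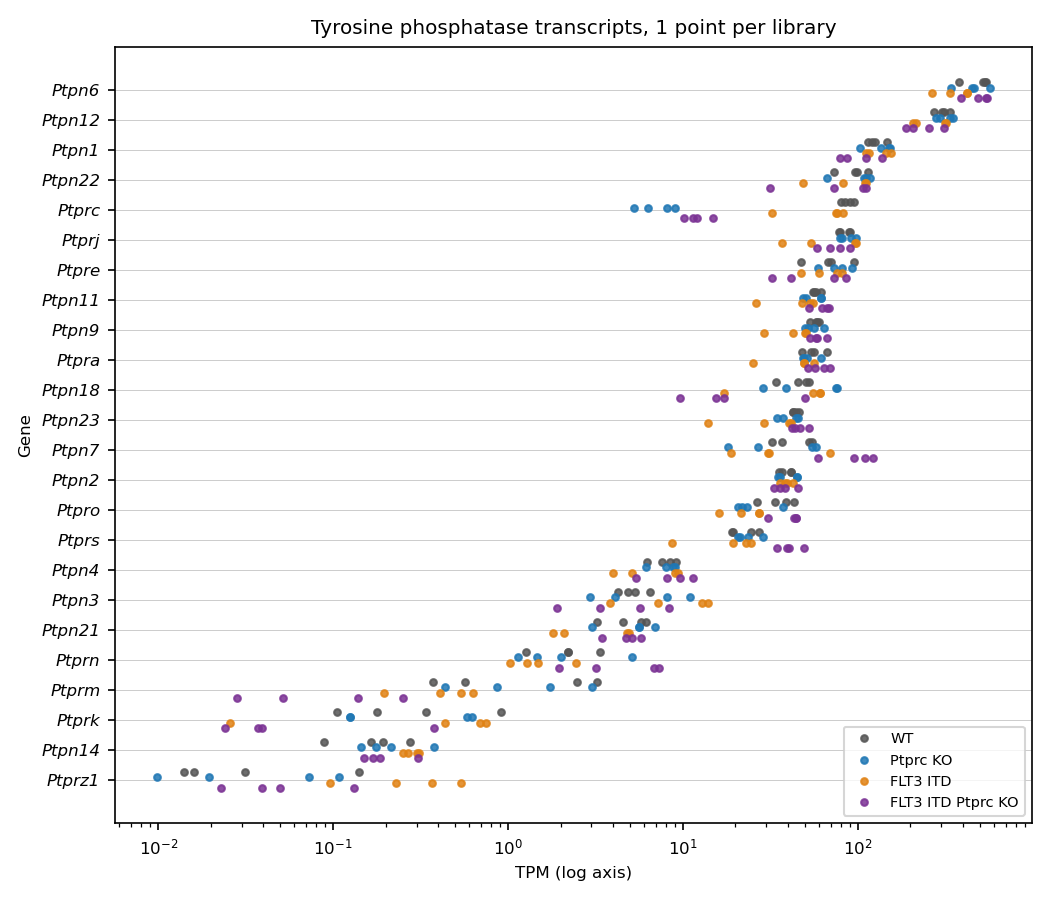
TPM of the 24 tested phosphatase genes on a log axis, 1 point per library (4 per genotype), genes ordered by their WT mean; a library at 0 TPM is not drawn. Ptpn6 and Ptpn12 lie at the top, and Ptprc is the gene whose 2 knockout groups, near 5 to 15 TPM, lie apart from the other groups.

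The share of Ptprc in the family's summed TPM was 5.18 ± 0.323% in WT (SD, n = 4) and 0.454 ± 0.119% in Ptprc KO (SD, n = 4). With FLT3 ITD the share was 4.69 ± 1.42%, and the double mutant had 0.786 ± 0.162% (SD, n = 4). These shares hold for TPM only and depend on the gene lengths given above. The sum of all other members was 1601 ± 58.1 TPM in WT and 1586 ± 121 TPM in Ptprc KO (SD, n = 4), ranges of 1523 to 1663 and 1408 to 1676 that overlap. FLT3 ITD cultures had a sum of 1338 ± 287 TPM, and double mutants one of 1543 ± 112 TPM (SD, n = 4). The low FLT3 ITD values were 1015 TPM in replicate 2, the library with the length trend, and 1177 TPM in replicate 4, while replicates 1 and 3 had 1576 and 1583 TPM. In bulk RNA, fewer cells of a type and less RNA per cell cannot be told apart, here and in every comparison that follows.

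The 12 untested genes were Ptprb, Ptprd, Ptprf, Ptprh, Ptprn2, Ptprq, Ptprr, Ptprt, Ptpru, Ptpn5, Ptpn13 and Ptpn20. No library held more than 16 counts of any of them, the highest being Ptprf. Ptprq, Ptprt and Ptpn20 had 0 counts in all 16 libraries, which allows up to 0.00639 CPM over the series (3 counts in all, counting error only). Several of these are known from other tissues, such as Ptprb from endothelium and Ptpn5 from neurons.

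With normal Flt3, the other phosphatases did not pass the test when Ptprc was lost. edgeR called 0 of the 23 other tested members in Ptprc KO against WT at an adjusted p under 0.05, where 0.0331% of all genes were called. At an unadjusted p under 0.05 it was 1 of 23, against 0.843% of all genes. DESeq2 called 0, and voom with quality weights called 2 (Ptpro and Ptpn1), where it called 556 of 12093 genes. In this and every other genotype comparison limma on TPM called 0 of the 19 members it tested. It needs a mean TPM of at least 1, which left out Ptprm, Ptprk, Ptprz1 and Ptpn14. The edgeR log2 changes ran from -0.39 to 0.49 with a median of 0.13, against 0.02 over all genes tested. 17 of the 23 were above 0, where 54.9% of all genes were. For 17 of the 23 the 95% interval lay within a 2-fold change either way, so for these a larger change is outside the interval, and for the other 6 it reached 2-fold. SHP-1 and SHP-2 were among the narrow ones: the log2 change of Ptpn6 was -0.03 (95% interval -0.34 to 0.28) and that of Ptpn11 was 0.05 (-0.29 to 0.39). Ptprj had a log2 change of 0.16 (-0.33 to 0.65), Ptpra of -0.01 (-0.46 to 0.44) and Ptpre of 0.21 (-0.47 to 0.90). Ptpn4, Ptpn7, Ptpn14, Ptpn18 and Ptprn share chromosome 1 with Ptprc, and their log2 changes were 0.13, -0.12, 0.21, 0.39 and 0.04.

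**Figure D2:**
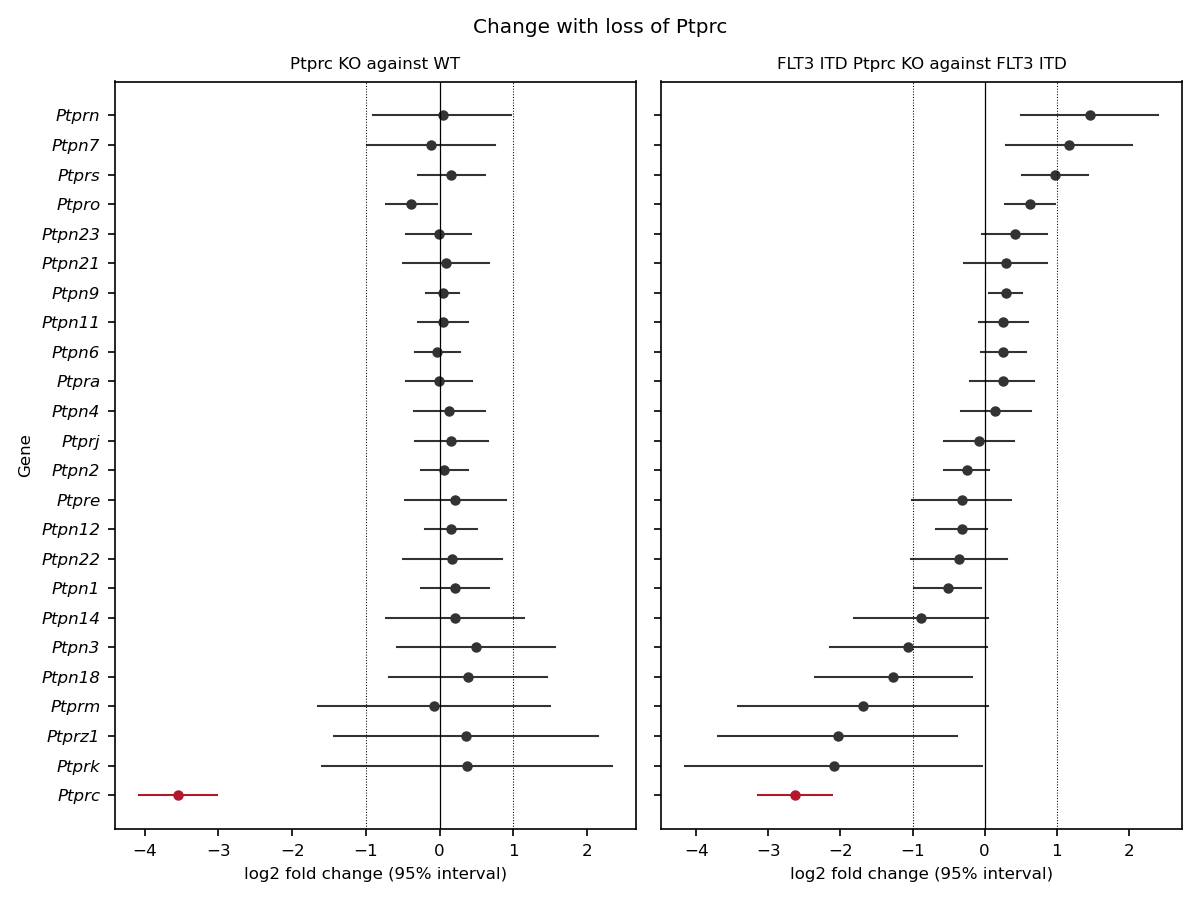
log2 fold change (x axis, dotted lines at 2-fold) with its 95% interval for each tested phosphatase (y axis), Ptprc KO against WT on the left and the double mutant against FLT3 ITD on the right, 4 libraries a group, Ptprc in red. On the left every gene but Ptprc lies between -0.39 and 0.49, and on the right the other genes spread from -2.09 to 1.46.

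The member of lowest p in that comparison was Ptpro, a receptor type whose truncated form, PTP-oc, is known from osteoclasts. WT cultures had 78.5, 63.8, 54.7 and 72.5 CPM, and Ptprc KO cultures 65.9, 50.9, 46.2 and 42.9 CPM. FLT3 ITD cultures had 56.4, 41.5, 56.4 and 51.5 CPM, and double-mutant cultures 84.3, 65.9, 87.3 and 80.2 CPM. The WT and Ptprc KO ranges overlap, and every double-mutant library lies above every FLT3 ITD library. The log2 change of Ptpro was -0.39 in Ptprc KO against WT (SE 0.16, adjusted p = 1) and 0.63 in the double mutant against FLT3 ITD (SE 0.16, adjusted p = 0.1). Next came PTP1B (Ptpn1), with 170, 184, 235 and 195 CPM in WT and 145, 267, 266 and 228 CPM in Ptprc KO. FLT3 ITD held 243, 235, 253 and 224 CPM of Ptpn1, and the double mutant 127, 238, 175 and 130 CPM. The groups overlap in both pairs. Its log2 change was 0.21 (SE 0.22, adjusted p = 1) without and -0.51 (SE 0.22, adjusted p = 0.16) with FLT3 ITD. Ptpn3 (PTPH1), a phosphatase with a FERM domain that binds the membrane skeleton, had a log2 change of 0.49 (SE 0.50, adjusted p = 1) in Ptprc KO against WT and is described per library further on.

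With FLT3 ITD, the loss of Ptprc came with wider differences among the other phosphatases and among all genes: the median absolute log2 change went from 0.15 to 0.42 over the 23 members and from 0.10 to 0.35 over all genes. Again 0 of 23 members passed in edgeR at an adjusted p under 0.05, where 0.00827% of all genes were called, that is Ptprc alone. At an unadjusted p under 0.05 it was 9 of 23, against 25.7% of all genes, and DESeq2 called 3 (Ptprs, Ptpro and Ptprn), limma on TPM 0 and voom 15. Over all genes DESeq2 called 984 and voom 7016 of 12093 in this pair. The log2 changes ran from -2.09 to 1.46 with a median of -0.08, against 0.03 over all genes, and 11 were above 0, where 52% of all genes were. 11 of the 23 intervals reached a 2-fold change, so for these genes such a change is within the error. The libraries of 4 of the 23 did not overlap between the groups, against 8.47% of all genes. Ptprs, Ptpro and Ptpn9 were higher in the double mutant, and Ptpn14 was lower. Without FLT3 ITD replicate 4, edgeR called 5 of 23 members (Ptpn7, Ptprn, Ptpro and Ptprs as higher, Ptpn18 as lower). Without double-mutant replicate 3 it called 4 (Ptprn and Ptprs as higher, Ptpn18 and Ptprk as lower). Without both, an alternative chosen after the scores were seen, it called 9, while the count over all genes went from 1 to 1798, 1315 and 4058 in those 3 fits.

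Ptprs (PTP sigma; ENSMUSG00000013236, chromosome 17, 56412426 to 56476483, minus strand), a receptor of the LAR type that binds proteoglycans and is best known from neurons, had the lowest p. WT cultures had 106, 101, 87.1 and 79.2 CPM, and Ptprc KO cultures 109, 112, 102 and 93.7 CPM. FLT3 ITD cultures had 108, 49.6, 102 and 101 CPM, and double-mutant cultures 169, 231, 144 and 163 CPM. The double-mutant libraries lie above those of FLT3 ITD, a pair in which 8.47% of all genes did not overlap. They also lie above those of Ptprc KO, where 6.33% of all genes did not overlap. FLT3 ITD replicate 2 is the lowest library of all. The double mutant was 1.97-fold higher than FLT3 ITD, a log2 change of 0.97 (95% interval 0.52 to 1.43, SE 0.21, adjusted p = 0.10). The change was called by DESeq2 (0.95, adjusted p = 0.0047) and by edgeR without FLT3 ITD replicate 4 (1.03, adjusted p = 0.029) or without double-mutant replicate 3 (1.06, adjusted p = 0.026). It was 0.78 without FLT3 ITD replicate 2 (adjusted p = 0.15) and 0.71 with the trend on gene length removed (adjusted p = 0.10). In Ptprc KO against WT the log2 change of Ptprs was 0.16 (95% interval -0.29 to 0.61).

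Averaged over both Flt3 states, 8 knockout against 8 intact libraries, edgeR called 0 of 23 other members, where 0.0165% of all genes were called. At an unadjusted p under 0.05 it was 3 of 23, against 4.01% of all genes. DESeq2 and limma on TPM called 0, and voom called Ptprs, where voom called 283 of 12093 genes. The log2 change of Ptprs was 0.57 (SE 0.15, adjusted p = 0.81), and that of Ptprc was -3.09 (SE 0.17, adjusted p = 3e-07).

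The effect of Ptprc loss was compared between the Flt3 states by the interaction, the change with FLT3 ITD minus the change without it. edgeR called 0 of 23 other members, where 0.00827% of all genes were called, and 7 of 23 had an unadjusted p under 0.05, against 17.5% of all genes. limma on TPM called 0, voom 14, and DESeq2 called Ptpro alone, where voom called 7296 and DESeq2 165 of all genes. The interaction of Ptpro was 1.01 on the log2 scale (SE 0.23, adjusted p = 0.25), from -0.39 without to 0.63 with FLT3 ITD, and DESeq2 gave 0.98 (adjusted p = 0.016). That of Ptprs was 0.81 (SE 0.30, adjusted p = 0.26). Without FLT3 ITD replicate 4 and double-mutant replicate 3, edgeR called 6 members, Ptpro among them at 0.97 (adjusted p = 0.024). That fit called 2459 of 12166 genes in place of 1, so nothing is read from the members' count.

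**Figure D3:**
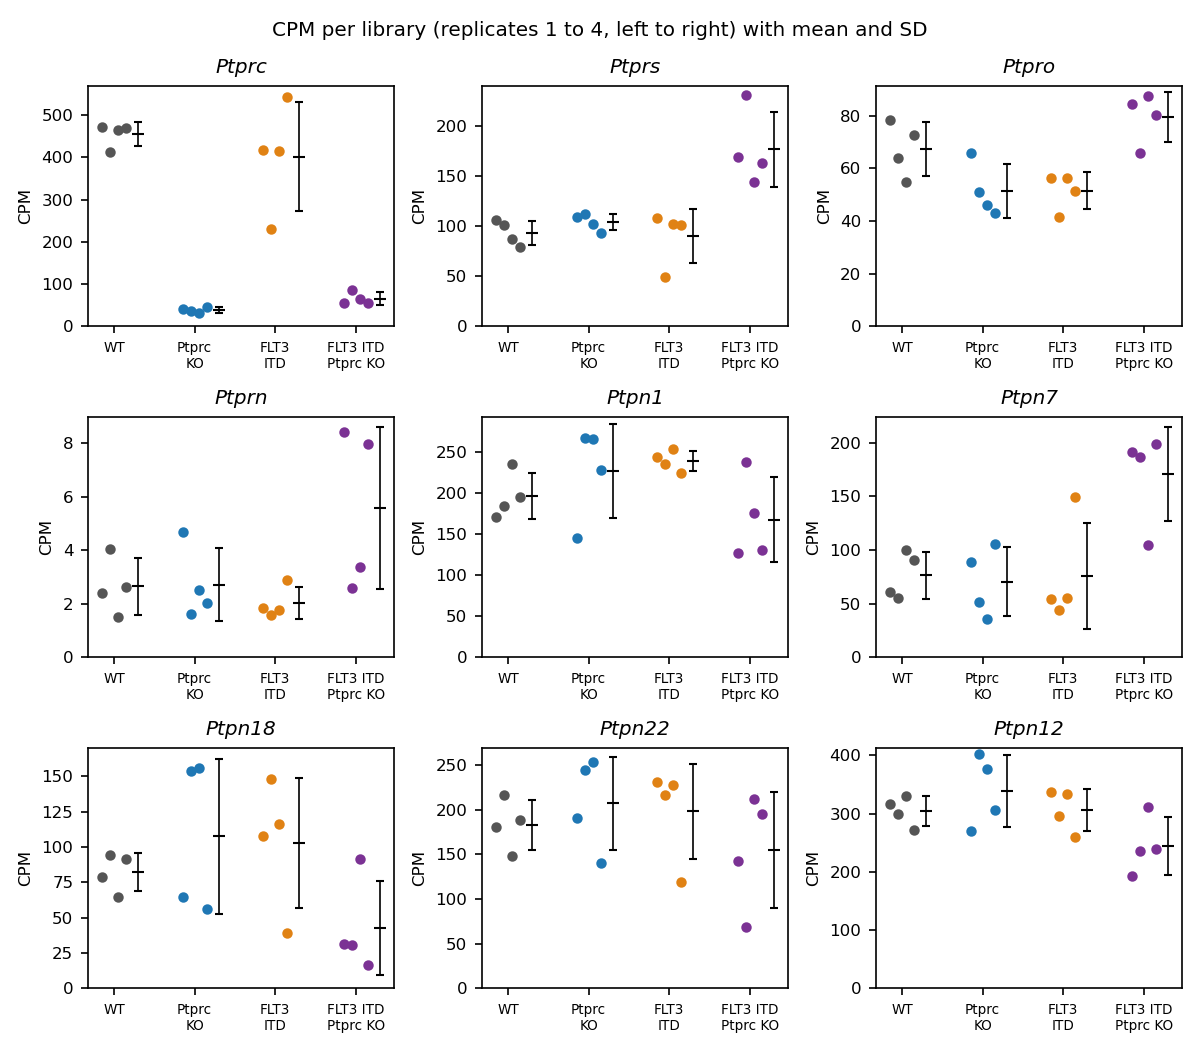
CPM of 9 phosphatase genes (y axes start at 0) in each library, replicates 1 to 4 from left to right within a genotype, with the group mean and SD (n = 4) beside the points. Ptprs and Ptpro stand higher in all 4 double-mutant libraries than in the FLT3 ITD libraries, whereas Ptpn7 and Ptpn18 split within the genotypes.

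Of the other members named in this pair, Ptprn (IA-2) is a receptor-type protein of secretory granules without phosphatase activity. WT cultures had 2.42, 4.06, 1.51 and 2.63 CPM, and Ptprc KO cultures 4.69, 1.62, 2.53 and 2.04 CPM. With FLT3 ITD alone it stood at 1.85, 1.60, 1.78 and 2.91 CPM, and double-mutant cultures 8.42, 2.59, 3.39 and 7.98 CPM. Double-mutant replicates 1 and 4 are the 2 high libraries, and the groups overlap. Its log2 change in the double mutant against FLT3 ITD was 1.46 (SE 0.45, adjusted p = 0.11), and DESeq2 called it (1.42, adjusted p = 0.031). Ptpn9 (MEG2), found on secretory vesicles, had a log2 change of 0.29 in the same pair (SE 0.11, adjusted p = 0.14), and its group means were 79.9 ± 3.01 and 65.2 ± 9.47 CPM (SD, n = 4).

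FLT3 ITD itself changed no phosphatase gene past the test while Ptprc was intact. edgeR called 0 of 23 members in FLT3 ITD against WT, where 0.0413% of all genes were called. The log2 changes ran from -1.81 (Ptprm) to 2.64 (Ptprz1). For 7 of the 23 the 95% interval reached a 2-fold change, so for these such a change is within the error. At an unadjusted p under 0.05 edgeR gave 3 of 23, against 8.45% of all genes. DESeq2 called 0, and limma on TPM called 0 of 19, with Ptprz1 and Ptprm not among those it tested. With voom it was 6, where voom called 1933 of 12093 genes. The lowest p belonged to Ptprz1, a receptor best known from glia. WT cultures had 0.0691, 0.133, 0.103 and 0.533 CPM of it, and Ptprc KO cultures 0.0902, 0.438, 0.529 and 0.0357 CPM. FLT3 ITD cultures had 1.66, 1.04, 2.09 and 0.416 CPM, and double-mutant cultures 0.184, 0.277, 0.651 and 0.15 CPM. The gene is near the limit of detection, 3 FLT3 ITD libraries are the highest, and the fourth lies within WT. The log2 change in FLT3 ITD against WT was 2.64 (SE 0.81, adjusted p = 0.59). For Ptprj, one of the phosphatases described for FLT3, the change was -0.06 (95% interval -0.54 to 0.43), and for Ptpn6 it was -0.23 (-0.54 to 0.08).

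Without CD45, FLT3 ITD again gave 0 of 23 calls in edgeR (double mutant against Ptprc KO), where 0.091% of all genes were called. At an unadjusted p under 0.05 it was 7 of 23, against 17.8% of all genes. Here limma on TPM called 0 of 19, with Ptprm not among those it tested. With voom it was 13 and with DESeq2 3, namely Ptprm, Ptpro and Ptprs, where voom called 6979 and DESeq2 332 of all genes. Ptprm, an adhesion receptor that binds its own kind on the next cell, ran from 0.992 to 8.15 CPM in Ptprc KO and from 0.0919 to 0.749 CPM in the double mutant. Its log2 change was -3.42 (SE 0.84, adjusted p = 0.12), and DESeq2 gave -3.45 (adjusted p = 0.0013). WT cultures ran from 0.981 to 8.76 CPM and FLT3 ITD cultures from 0.693 to 1.57 CPM. With Ptprc intact, the log2 change of Ptprm in FLT3 ITD against WT was -1.81 (SE 0.77, adjusted p = 0.59). Its interaction was -1.61 (SE 1.09, adjusted p = 0.41). In the double mutant against Ptprc KO, the change of Ptpro was 0.63 (SE 0.16, adjusted p = 0.14) and that of Ptprs 0.76 (SE 0.21, adjusted p = 0.17). Double-mutant and Ptprc KO libraries overlapped for Ptpro and did not for Ptprs, and 6.33% of all genes did not overlap in this pair. Without double-mutant replicate 3, edgeR called 4 members, Ptpn12, Ptpn18, Ptprm and Ptprs, while the count over all genes went from 11 to 786 of 12190. This comparison shares its double-mutant libraries with the one against FLT3 ITD.

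The levels of several phosphatases followed the osteoclast state of a culture, read from the resorption score. In a fit with the 4 group means and the score, edgeR called 7 of the 23 other members for a slope on the score within genotype, 6 with a rise and 1 with a fall. Over all genes 41.7% were called, 20.9% with a rise and 20.8% with a fall, so the members' count is below the background share and is no result about the family. None of the 13 score genes is a member. Slopes are changes in log2 level per unit of score. The median slope was 0.17 over the members and -0.04 over all genes.

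Ptpn18, a PEST-type phosphatase known to dephosphorylate the receptor HER2, had the lowest p. WT cultures had 78.6, 94.2, 64.8 and 91.2 CPM, and Ptprc KO cultures 64.4, 154, 156 and 56.2 CPM. In FLT3 ITD it had 108, 148, 116 and 38.9 CPM, and double-mutant cultures 31.7, 30.4, 91.8 and 16.5 CPM. The 2 Ptprc KO libraries of high score, replicates 2 and 3, have the most, the low-scoring FLT3 ITD replicate 4 lies near the double mutants, and the high-scoring double-mutant replicate 3 lies within WT. Its slope was 1.12 (SE 0.10, adjusted p = 3.9e-06). This was close to the slopes of the score's own Acp5 and Ctsk, 1.22 and 1.29, which rise by construction.

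The other 2 PEST-type phosphatases also rose with the score, a grouping seen after the slopes. Ptpn12, which acts on paxillin and p130Cas at adhesion sites, had 317, 299, 330 and 271 CPM in WT and 270, 402, 377 and 306 CPM in Ptprc KO. FLT3 ITD held 337, 295, 333 and 260 CPM, and the double mutant 192, 235, 312 and 239 CPM. The differences are small, and the 2 highest libraries are again Ptprc KO replicates 2 and 3. The slope was 0.27 (SE 0.07, adjusted p = 0.0051), and 0.33 without FLT3 ITD replicate 4 and double-mutant replicate 3 (adjusted p = 0.15), where the call was lost. Ptpn22 had 181, 216, 148 and 188 CPM in WT and 191, 244, 253 and 140 CPM in Ptprc KO. FLT3 ITD held 231, 216, 227 and 119 CPM, and the double mutant 143, 68.2, 212 and 195 CPM. Double-mutant replicate 2 is the lowest, and replicate 4 is high although its score is low. The slope was 0.46 (SE 0.15, adjusted p = 0.028), and it was lost without FLT3 ITD replicate 4 (0.38, adjusted p = 0.13), without double-mutant replicate 3 (0.53, adjusted p = 0.077) and without Ptprc KO replicate 3 (0.44, adjusted p = 0.050) or 4 (0.41, adjusted p = 0.064). Pstpip1, the adaptor that brings PEST-type phosphatases to the cytoskeleton, had a slope of 1.11 (SE 0.09, adjusted p = 2.4e-06). Of the 18 tested adaptors and partners of tyrosine phosphatases, 6 rose, Pstpip1 among them, 2 fell and 10 were not called. Over all genes 41.7% were called.

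Ptpn3 had 8.57, 10.8, 10.1 and 13.6 CPM in WT and 7.55, 26.8, 19.5 and 6.75 CPM in Ptprc KO. FLT3 ITD held 29.0, 19.5, 27.9 and 9.82 CPM, and the double mutant 4.23, 13.3, 17.7 and 6.21 CPM. In each mutant genotype the low-scoring libraries hold less of it than the high-scoring ones, with a slope of 1.04 (SE 0.18, adjusted p = 0.00055). Ptprk, an adhesion receptor of the MAM type whose gene spans chromosome 10, 28074820 to 28597397, had 0.830, 0.716, 0.447 and 2.88 CPM in WT and 0.511, 2.54, 2.68 and 0.572 CPM in Ptprc KO. FLT3 ITD held 3.01, 1.99, 3.13 and 0.167 CPM, and the double mutant 0.153, 0.173, 1.47 and 0.15 CPM. FLT3 ITD replicate 4 lies with the low-scoring double mutants, and double-mutant replicate 3 lies above 3 of the 4 WT libraries. Its slope of 2.13 (SE 0.30, adjusted p = 0.00014) was the steepest of the family, at a level near 1 CPM. Ptprz1, given above, had a slope of 1.41 (SE 0.34, adjusted p = 0.0046), and 2.57 (SE 0.72, adjusted p = 0.050) without both libraries that stand apart in score, where it was no longer called. Ptpn18, Ptpn3, Ptprk and Ptpn7 were the 4 members still called in that fit.

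Ptpn7 (HePTP), which dephosphorylates the MAP kinases ERK and p38 in blood cells, was the only member called as falling with the score in edgeR over all 16 libraries, though 8 of the 23 slopes were below 0. Other settings also called a fall of Ptpn2 (-0.20 with voom, adjusted p = 0.016, and -0.20 without FLT3 ITD replicate 2, adjusted p = 0.0068), of Ptpn11 (-0.18 with the length trend removed, adjusted p = 0.027) and of Ptprn (-0.56 without double-mutant replicate 2, adjusted p = 0.043). WT cultures had 60.4, 55.4, 99.7 and 90.5 CPM, and Ptprc KO cultures 88.7, 51.6, 35.7 and 106 CPM. The FLT3 ITD libraries held 54.7, 43.9, 55.4 and 149 CPM, and double-mutant cultures 191, 187, 105 and 199 CPM. In each mutant genotype the library with the most Ptpn18 had the least Ptpn7, and the one with the least Ptpn18 had the most Ptpn7. The slope was -0.80 (SE 0.12, adjusted p = 0.00024). Ptpro and Ptprs, by contrast, had slopes of 0.01 (95% interval -0.21 to 0.22) and -0.11 (-0.40 to 0.17), and Ptprc of -0.21 (-0.47 to 0.06).

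**Figure D4:**
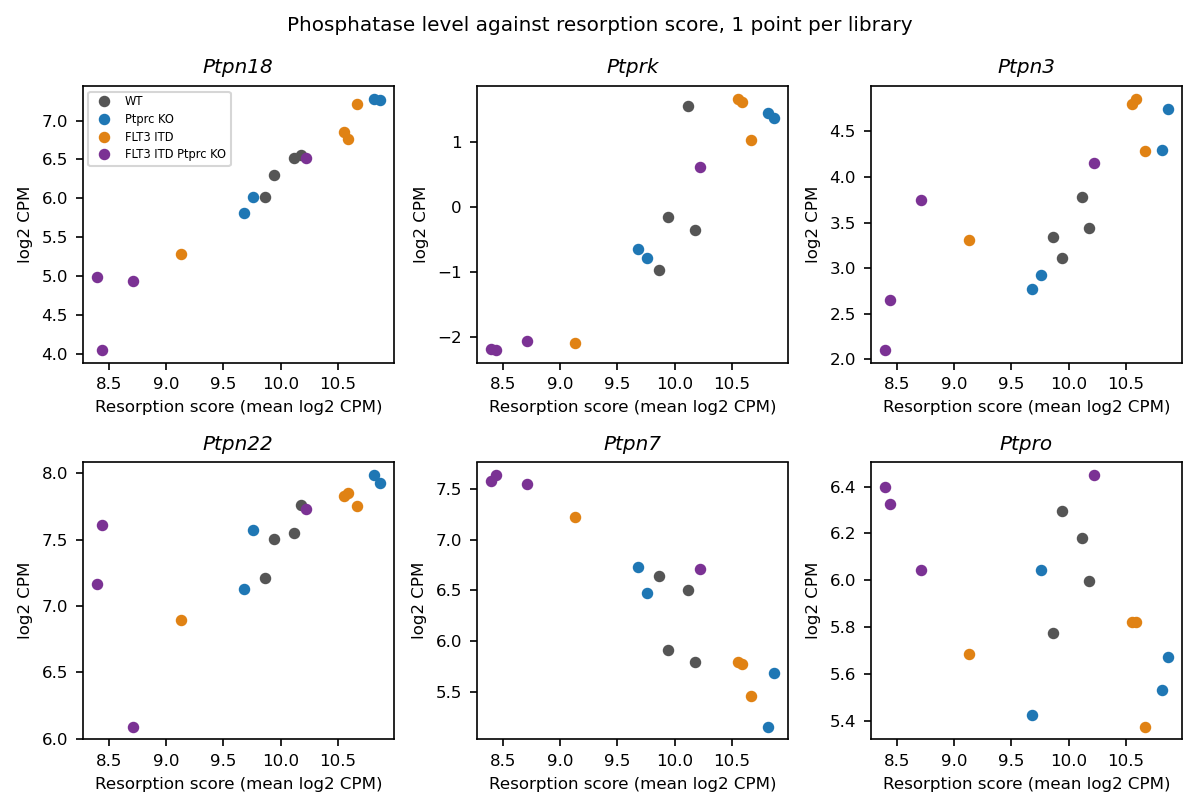
log2 CPM of 6 phosphatase genes (y axis) against the resorption score (x axis, mean log2 CPM of 13 genes), 1 point per library, colours by genotype. Ptpn18, Ptprk, Ptpn3 and Ptpn22 lie higher where the score is high and Ptpn7 lower, while Ptpro, with a slope of 0.01, shows no such order.

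The sequences before the transcription start are shown for the genes with the 3 lowest p values on the score, of which 2 rose and 1 fell, and for Ptprs, the gene of lowest p with the loss of Ptprc in FLT3 ITD. They are the 250 bases upstream of a RefSeq start in GRCm38.p6, on the strand of the gene. Ptpn7 and Ptprs had 2 such entries each, and only the one nearest the GENCODE gene start is shown. 31 of the 36 members had such an entry. Capitals mark the matches, on either strand, to 4 motifs of osteoclast factors: PU.1 (GAGGAA), AP-1 (TGANTCA), NFAT (TGGAAA) and MITF (CACGTG or CATGTG).
Ptpn18, chr1:34459496-34459745, plus strand: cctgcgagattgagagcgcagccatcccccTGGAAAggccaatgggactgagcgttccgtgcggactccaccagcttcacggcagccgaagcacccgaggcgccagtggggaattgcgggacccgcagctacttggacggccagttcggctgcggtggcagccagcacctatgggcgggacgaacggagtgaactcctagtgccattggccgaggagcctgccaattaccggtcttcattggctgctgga
Ptprk, chr10:28074570-28074819, plus strand: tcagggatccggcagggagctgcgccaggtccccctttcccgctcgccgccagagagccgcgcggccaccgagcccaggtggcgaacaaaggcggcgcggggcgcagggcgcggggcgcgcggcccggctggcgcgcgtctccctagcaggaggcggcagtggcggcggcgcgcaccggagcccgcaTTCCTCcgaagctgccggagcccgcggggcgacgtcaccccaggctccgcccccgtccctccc
Ptpn7, chr1:135132450-135132699, plus strand: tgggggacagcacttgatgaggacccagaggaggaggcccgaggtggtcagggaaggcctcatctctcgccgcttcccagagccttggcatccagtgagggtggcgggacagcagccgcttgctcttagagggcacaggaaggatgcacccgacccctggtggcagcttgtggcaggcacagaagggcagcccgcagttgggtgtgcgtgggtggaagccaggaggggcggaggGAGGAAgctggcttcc
Ptprs, chr17:56476481-56476730, minus strand: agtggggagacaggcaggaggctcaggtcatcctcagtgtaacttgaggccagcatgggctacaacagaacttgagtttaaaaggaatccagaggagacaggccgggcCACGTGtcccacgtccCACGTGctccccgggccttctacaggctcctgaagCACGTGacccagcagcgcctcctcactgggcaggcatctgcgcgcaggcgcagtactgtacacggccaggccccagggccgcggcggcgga
The window of Ptpn18 holds 1 NFAT match, those of Ptprk and Ptpn7 hold 1 PU.1 match each, and that of Ptprs holds 3 MITF matches, all of them CACGTG. Among the 32851 RefSeq promoters of this length, 23.3% hold a PU.1 match, 6.75% an AP-1 match, 18.6% an NFAT match and 17.6% an MITF match. The GC content of the 4 windows was 64.0%, 79.2%, 66.0% and 64.0%, against a median of 52.4% over all promoters. The matches describe letters only, and no binding data were used.

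With the score in the fit, the changes of the score-linked phosphatases between the double mutant and FLT3 ITD became smaller, and those of Ptpro and Ptprs did not, or only slightly. These shifts follow from the slopes given above, since both come from the same fit on the same libraries, and are no further result. Ptpn18, Ptpn7, Ptprk and Ptpn3 were named for their slopes, and Ptpro had a slope of 0.01. The log2 change of Ptpn18 went from -1.27 (SE 0.51) to 0.09 (SE 0.21), that of Ptpn7 from 1.17 (SE 0.41) to 0.27 (SE 0.24) and that of Ptprk from -2.09 (SE 0.97) to 0.30 (SE 0.63). Ptpn3 went from -1.06 (SE 0.51) to 0.26 (SE 0.36). Ptpro stayed at 0.63 (SE 0.20, adjusted p = 0.36), Ptprs stood at 0.83 (SE 0.27, adjusted p = 0.36), and Ptprc at -2.87 (SE 0.26, adjusted p = 0.00031). No member other than Ptprc passed, and Ptprc was again 1 gene called of 12093. 3 of 4 FLT3 ITD libraries have high scores and 3 of 4 double mutants low ones, so a change with the genotype that acts on the score cannot be told apart from a change with the score alone.

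**Figure D5:**
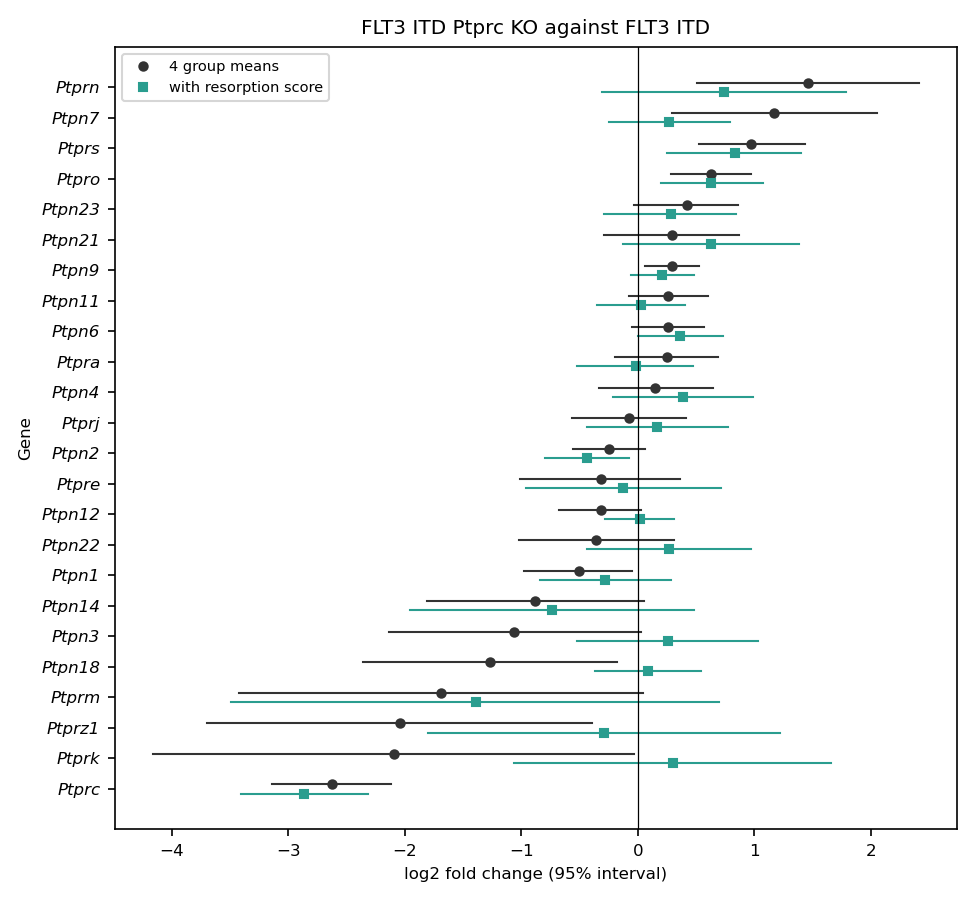
log2 fold change with its 95% interval (x axis) of each tested phosphatase (y axis) in the double mutant against FLT3 ITD, with 4 group means alone (circles) and with the resorption score as a covariate (squares), 4 libraries a group. Ptpn18, Ptpn7, Ptprk and Ptpn3 move towards 0 with the score in the fit, and Ptpro stays at 0.63, as follows from their slopes on the score.

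The genes around these phosphatases were read from 5 lists fixed by function. In each of the 6 genotype comparisons edgeR, the only tool run on the lists, called 0 genes of every list. At an unadjusted p under 0.05 it was 1 gene in all in Ptprc KO against WT, Dusp18, and 7, 4, 5, 4 and 7 genes of the lists, in the order given here, in the double mutant against FLT3 ITD, where 25.7% of all genes were. In the double mutant against FLT3 ITD the Src-family kinases and their controllers (11 tested) had a median log2 change of 0.35, and the 2 of lowest p were Csk, the kinase that sets the phosphate CD45 removes, at 0.35 (SE 0.11, adjusted p = 0.12) and the ubiquitin ligase Cblb at -0.88 (SE 0.31, adjusted p = 0.13). The JAK kinases and the kinases and adaptors of ITAM receptors (12 tested) had a median of 0.24, with the adaptor Blnk at 1.00 (SE 0.32, adjusted p = 0.12). The inhibitory receptors that recruit SHP-1 or SHP-2 (18 tested) had a median of 0.65, with 15 above 0. Over all genes the median was 0.03, with 52% above 0. In Ptprc KO against WT the median of these receptors was -0.23 with 3 above 0, against 0.02 and 54.9% over all genes. In the double mutant against FLT3 ITD the receptor of lowest p was Cd72 at 1.51 (SE 0.32, adjusted p = 0.10). Pirb, a paired receptor known to restrain osteoclast formation, followed at 0.70 (SE 0.25, adjusted p = 0.13). Adaptors and partners of tyrosine phosphatases (18 tested) had a median of 0.14, and the other tyrosine phosphatases, among them the dual-specificity genes (39 tested), one of 0.18.

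On the resorption score, the same lists held 3 rises and 4 falls among the 11 Src-family genes and their controllers, to be read against the 20.9% of all genes that rose and the 20.8% that fell. Src itself rose (0.80, SE 0.11, adjusted p = 0.00016) with Cblb and Yes1, and those that fell included Fyn (-0.76) and Pag1. Of the 12 JAK and ITAM genes 0 rose and 3 fell, Blnk, Jak2 and Fcer1g. Of the 18 inhibitory receptors 0 rose and 9 fell, such as Cd300a (-1.17, SE 0.27, adjusted p = 0.0040) and Milr1 (-0.96, SE 0.21, adjusted p = 0.0026). Of the 18 adaptors and partners 6 rose and 2 fell. The 6 included Pxn (0.69) and Bcar1 (1.09), which encode the PTP-PEST substrates paxillin and p130Cas. Of the 39 other tyrosine phosphatases 3 rose, among them Dusp22 (0.71, SE 0.08, adjusted p = 3.6e-05), and 10 fell, among them Ptp4a3 (-0.88, SE 0.13, adjusted p = 0.00018) and Dusp1 (-2.02, SE 0.44, adjusted p = 0.0026). Markers of other cells also moved with the score. Of 8 macrophage markers 0 rose and 5 fell, with a median slope of -1.08 and 3 slopes above 0. Of 7 tested stromal and osteoblast markers 0 rose and 5 fell (median -2.01), and of 7 tested neutrophil markers 0 rose and 2 fell (median -2.06). The part of these cells in the slopes of the phosphatases was not tested.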

How the data were processed

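The authors deposited raw counts, whole reads per gene without normalization, and a second table of TPM. Libraries were poly(A)-selected and strand-specific with molecular identifiers, per the labels' protocols. Per the submitters' processing notes reads were handled on GRCm38.p6 with STAR 2.7.6a and featureCounts 2.0.3, with cutadapt 4.2, bcl2fastq 2.20.0.422 and UMI-tools 1.1.1 also named. Their order, settings and use of strand are not given in the sources used here. No tested member overlaps another deposited gene.

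Counts were tested with edgeR 4.0.16 (R 4.3.3): filterByExpr, TMM, a robust quasi-likelihood fit of 4 group means over 16 libraries, two-sided, Benjamini-Hochberg over 12093 genes, threshold 0.05. The resorption score (log2 CPM, prior count 2) was added as a covariate for slopes. SE is the log2 change over the root of F. The common dispersion, 0.137, gives a coefficient of variation of 0.37. Scripts were tested on simulated data.

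Described per library were Ptprc, members called in any comparison, and the 3 others of lowest p in each of the 2 comparisons that remove Ptprc. List genes were named when called, or as the 2 of lowest p. Members, lists and tests were chosen with earlier results of these data known. Some genes of the lists are counted in them and not reported by name here.

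Other settings tried were a replicate block, DESeq2 1.42.0, only the groups compared, voom with quality weights, limma 3.58.1 on log2(TPM + 1) at a mean TPM of at least 1, RLE factors, a mean count of at least 50, no filter, FLT3 ITD replicates 1 and 3 summed, the length trend removed, the score as covariate and each library left out. Another 3 combinations were added after seeing the data.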

Additional observations from a re-analysis of the deposited data

Results flagged for a closer look

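Within each genotype, the highest and lowest of the 4 CPM values of each tested member were compared with the rest by Dixon's criterion (the gap to the next value over the group's range). Of 96 groups of 4 values, 14 were marked, where chance marks about 1 in 20.

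FLT3 ITD replicate 4 stood apart for Ptpn7 (149 CPM, the others at 43.9 to 55.4) and Ptpn22 (119 CPM, the others at 216 to 231). Double-mutant replicate 3 stood apart for Ptpn7 (105 CPM, the others at 187 to 199) and Ptprk (1.47 CPM, the others at 0.15 to 0.173). These are the 2 libraries whose resorption score lies away from their group. FLT3 ITD replicate 2, whose expression fell with gene length, stood apart for Ptprs (49.6 CPM, the others at 101 to 108), Ptpn9 (51.0 CPM, the others at 69.8 to 70.1) and Ptpn11 (76.4 CPM, the others at 121 to 130). The Ptprs value enters the comparison of the double mutant with FLT3 ITD.

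In WT, replicate 3 had 313 CPM of Ptpn6 against 406 to 417, replicate 2 had 412 CPM of Ptprc against 464 to 472, and replicate 4 had 2.88 CPM of Ptprk against 0.447 to 0.830 and 0.533 CPM of Ptprz1 against 0.0691 to 0.133. In Ptprc KO, replicate 4 had 295 CPM of Ptpn6 against 400 to 409 and 145 CPM of Ptpn11 against 119 to 121. Double-mutant replicate 1 had 1.16 CPM of Ptpn14 against 0.570 to 0.657.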

How the results depend on the processing

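Counts are of the 23 members other than Ptprc, which remained called in each removal of Ptprc except in the fit of only FLT3 ITD and double-mutant libraries. For the double mutant against FLT3 ITD the count was 0, but 3 with DESeq2, 15 with voom, 9 without FLT3 ITD replicate 4 and double-mutant replicate 3, and 0 to 5 with 1 library left out; over all genes the calls went from 1 to 984, 7016 and 4058 in the first 3. For the double mutant against Ptprc KO it was 3 with DESeq2, 13 with voom, 7 without both libraries and 0 to 4 with 1 left out, and all genes went from 11 to 332, 6979 and 2200. For the interaction it was 1, 14 and 6 in the same 3 fits, with all genes from 1 to 165, 7296 and 2459. With voom it was 2 for Ptprc KO against WT, 6 for FLT3 ITD against WT and 1 for the average, with 556, 1933 and 283 genes called in place of 4, 5 and 2. On the score it was 4 rather than 7 both with limma on TPM, where 19 were tested, and without both libraries, where all genes went from 5046 to 980, and 6 to 8 with 1 library left out. The log2 change of Ptpn18 in the double mutant against FLT3 ITD turned from -1.27 to 0.09 with the score as covariate and to 0.13 with it and without FLT3 ITD replicate 2. Replicate numbers were not taken to pair the samples: 12 of 24 same-numbered pairs correlated above 0.1 (from -0.63 to 0.85), never all 4 between genotypes compared here. All 4 did between Ptprc KO and FLT3 ITD, a pair not compared (0.14 to 0.85), and 8 of 16 libraries correlated best with their own number. The number expected without pairing was not worked out, so these values do not settle whether samples were paired. With a replicate block 0 members were called in each genotype comparison and 5 on the score, where Ptpn12 (adjusted p = 0.11) and Ptpn22 (0.055) missed the threshold. Over all genes the block gave 47 calls in place of 11 for the double mutant against Ptprc KO and 2954 in place of 5046 on the score. No other alternative moved a count of members beyond 1.5 times. Depth limits Ptprz1, Ptprk, Ptprn, Ptprm and Ptpn14, at a few CPM or fewer. The causes of these shifts were not tested.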
